A study of Mus musculus with 6 samples.

Results

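The genes described are those of the mitochondrial respiratory chain and ATP synthase in optic nerve of mice that form optic glioma, read as transcript levels after a maternal obesogenic or control diet. They were chosen by name. Every gene whose symbol begins as a subunit of complexes I to V does (Nduf, Sdh, Uqcr, Cox4 to Cox8, Atp5, or an mt- name of a mitochondrial protein gene) was taken, apart from pseudogenes marked -ps and Ndufa4l2, a paralogue of Ndufa4. This gave 114 of the 35850 genes listed. Of these, 13 are the protein genes of mitochondrial DNA and 101 lie in the nucleus. The nuclear genes hold 82 structural subunits (36 of complex I, 4 of complex II, 8 of complex III, 16 of complex IV and 18 of complex V), 12 assembly factors, 4 annotated copies of subunit genes, and 3 subunit isoforms best known from testis.

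Both diets were given to the same genotype. Mice had Cre recombinase under the GFAP promoter, which is active in glia, with one floxed Nf1 allele and one Nf1 allele carrying the R681X mutation, so loss of Nf1 in Cre-expressing cells was shared by the control animals too. Optic nerves were taken at 6 weeks of age. The obesogenic group (3 libraries) had a diet listed as AIN-76A with 58% fat energy, sucrose and red, and the control group (3 libraries) had PicoLab 5053. Nothing in the labels states that the libraries came from separate mice or litters, so a p-value here reflects only how far these samples scatter, and that scatter may be technical. The tissue is a bulk sample. A lower transcript level from fewer cells of a type and one from less RNA per cell cannot be told apart.

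The respiratory chain sits in the inner mitochondrial membrane. Complexes I and II take electrons from NADH and succinate, complex III passes them to cytochrome c, complex IV hands them to oxygen, and ATP synthase, or complex V, uses the proton gradient that complexes I, III and IV build. A few subunits of complexes I, III, IV and V are encoded in mitochondrial DNA and translated inside the organelle. All other subunits, including the whole of complex II, come from nuclear genes and are imported. Complex IV further has subunits with alternative isoforms, some of which are used mainly in heart, skeletal muscle, brown fat or testis. Myelinated axons of the optic nerve depend on this system for ATP, and glia contribute lactate from glycolysis.

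Nuclear subunit promoters are known for sites of the factors NRF1, NRF2 (an ETS-family factor) and YY1, and the members' promoters were read for the letters of these sites in RefSeq sequence (GRCm38.p6, 250 bases before to 50 bases after each gene's start). Of the 82 structural members, 68 had a promoter there, belonging to 67 RefSeq genes. The NRF1 letters, a pair of GCGC half-sites with 2 bases between them, stood in the promoters of 19 of these 67 genes (28.4%), against 7.0% of all 27025 RefSeq genes with a window of that length. The ETS letters CCGGAAG stood in 17 (25.4%, against 9.93%) and the YY1 letters AAGATGGCG in 7 (10.4%, against 1.64%). At least one of these motifs stood in 37 promoters (55.2%, against 16.6%). Both strands were read, and a promoter that held several motifs was counted under each. A match describes the letters and is not evidence of binding. The 3 promoters below belong to complex IV subunits whose isoform balance is described later. Cox6a1 (chr5:115348909-115349208, minus strand) encodes the form of subunit 6a used in most tissues, Cox7a2 (chr9:79759804-79760103, minus strand) the widely used form of subunit 7a, and Cox7a1 (chr7:30183921-30184220, plus strand) the form of subunit 7a best known from heart and muscle. Capitals mark the motifs, which are 2 NRF1 and 1 ETS motif in Cox6a1 and none in the others.
Cox6a1: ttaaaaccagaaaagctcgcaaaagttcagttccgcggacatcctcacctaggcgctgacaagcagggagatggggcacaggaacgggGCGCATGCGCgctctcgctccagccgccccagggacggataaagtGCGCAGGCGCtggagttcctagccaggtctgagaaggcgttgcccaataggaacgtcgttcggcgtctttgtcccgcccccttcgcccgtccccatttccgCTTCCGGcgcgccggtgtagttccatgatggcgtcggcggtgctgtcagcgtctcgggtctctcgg
Cox7a1: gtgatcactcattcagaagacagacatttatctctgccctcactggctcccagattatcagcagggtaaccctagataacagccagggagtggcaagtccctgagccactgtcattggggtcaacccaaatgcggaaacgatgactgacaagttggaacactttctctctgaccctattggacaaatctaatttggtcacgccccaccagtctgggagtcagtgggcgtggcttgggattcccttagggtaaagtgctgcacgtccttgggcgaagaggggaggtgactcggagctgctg
Cox7a2: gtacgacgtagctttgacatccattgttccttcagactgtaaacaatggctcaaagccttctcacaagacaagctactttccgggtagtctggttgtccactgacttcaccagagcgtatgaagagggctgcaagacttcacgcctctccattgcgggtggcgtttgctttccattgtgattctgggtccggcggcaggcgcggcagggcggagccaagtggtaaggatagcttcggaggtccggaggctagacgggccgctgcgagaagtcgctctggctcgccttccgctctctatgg

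Some facts of the libraries bear on every value below. Levels are in TPM, a length-corrected share of each library's transcripts, and the 35850 genes summed to between 788456 and 832193 TPM per library. Obesogenic library 2 stood apart, since immunoglobulin genes took 20.6% of its listed TPM, against at most 0.0439% in any other library. Defining markers of oligodendrocytes were all listed, summing to 26756 to 54912 TPM in obesogenic and 61629 to 69540 TPM in control libraries. The 8 neuronal markers summed to 95.1 to 1066 TPM in obesogenic and 59.3 to 105.0 TPM in control libraries, with all 8 higher on average, and the 5 hypothalamic markers, which include Avp and Oxt, to 1253 to 7602 TPM in obesogenic and 406 to 2182 TPM in control libraries, with 4 higher. The part of these differences in the results below was not tested. For 23 nuclear members, at least one transcript of the GENCODE M21 annotation was not used here (24 of 458 transcripts in all), often the main coding one, so their levels are partial. They include Cox4i1, Cox4i2, Cox6b2, Cox6c, Ndufa12, Ndufs5, Ndufa3, Atp5a1, Atp5g1, Atp5j and Atp5k. No mt- gene was among them.

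No respiratory chain gene passed the test for a difference between the diets. Of the 114 members, 110 passed the filter of at least 1 TPM in at least 3 libraries and were tested, and 0 had a limma adjusted p under 0.05 over all 14364 genes tested. The background share called by that rule was 0.00696%, a single gene that is no member. At an unadjusted p under 0.05 there were 3 members, all of complex IV (Cox6a2, Cox7a1 and Cox6b2), which is 2.73% of those tested against a background of 11.0% of all genes tested. Every obesogenic library was above every control library for 2 members (background 8.88%) and below for 3 (background 7.45%). The 2 were Cox6a2 and Atp5k, and the 3 were Cox7a1, Cox6b2 and Cox4i1. The members' shares were below the background in each case.

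The means leaned slightly downward for the subunits. Differences are obesogenic minus control means of log2(TPM + 1), a scale on which low genes appear to differ less than they do. Their median was -0.09 over the 97 tested nuclear members, with 28 higher and 69 lower. It was -0.27 over the 13 mt- genes, with 1 higher and 12 lower. Over all genes tested the median was 0.08, with 8288 higher and 6076 lower. Over the scalings tried, the nuclear median lay between -0.24, after centring on the library median, and 0.02, with immunoglobulin genes removed before scaling, and the mt- median between -0.42 and -0.17. Both medians turned positive without obesogenic library 2, at 0.18 for nuclear and 0.08 for mt- genes.

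The 3 obesogenic libraries differed among themselves more than the diets did. Set against the control mean, the median nuclear member was at -0.02, -0.60 and 0.39 log2 units in obesogenic libraries 1, 2 and 3, against -0.06, 0.03 and 0.03 in control libraries 1, 2 and 3. For mt- genes the medians were -0.07, -0.97 and 0.24 in the obesogenic libraries and 0.06, -0.15 and 0.11 in the control libraries. Obesogenic library 2 was therefore the low one and obesogenic library 3 the high one. Over all genes tested, the medians were 0.19, -0.16 and 0.14 in the obesogenic libraries and 0.04, -0.01 and -0.02 in the control libraries. Several other mitochondrial lists, but not all, had the same low and high libraries. In obesogenic libraries 2 and 3 the medians were -0.59 and 0.34 for the tricarboxylic acid cycle, -0.41 and 0.30 for electron carriers and ubiquinone synthesis, -0.40 and 0.32 for assembly factors outside the name rule, -0.33 and 0.48 for carriers, outer membrane and cristae, and -0.27 and 0.44 for the mitochondrial ribosome. Genes for copying, transcribing and handling mitochondrial DNA and RNA were at -0.0065 and 0.37, and control library 3 was their lowest, at -0.10. Regulators of nuclear subunit genes were at -0.08 and -0.31. Uncoupling proteins, alternative isoforms and inhibitors were at -0.27 and -0.07. Whether the chain differed from these lists was not tested. Of 81 tested structural subunits, 72 had their lowest value in obesogenic library 2 (88.9%, against 36.1% of all genes tested) and 61 their highest in obesogenic library 3 (75.3%, against 32.2%). All 13 mt- genes were lowest in obesogenic library 2, and 10 were highest in obesogenic library 3. With immunoglobulin genes removed and each library rescaled, obesogenic library 2 was still at -0.32 for nuclear and -0.69 for mt- genes.

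**Figure D1:**
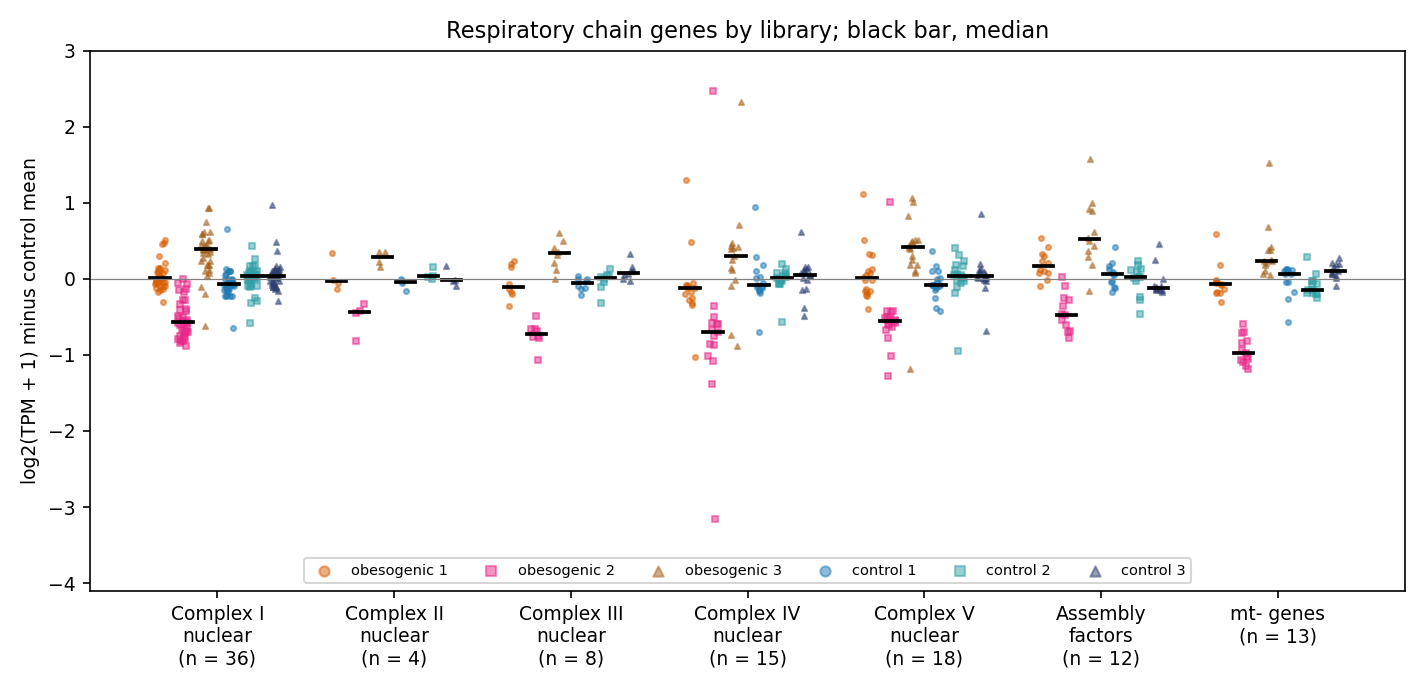
Each point is one tested gene in one library, as log2(TPM + 1) minus the mean of the 3 control libraries, and black bars are medians over the genes of a class. The median of obesogenic library 2 lies below 0 and that of obesogenic library 3 above 0 in every class, from complex I to the 13 mt- genes, while control medians stay close to 0.

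In listed TPM, the mitochondrially encoded genes held more than all nuclear members together. The nuclear sum is partial, because 23 nuclear members, and no mt- gene, had an annotated transcript that was not used here. Their 13 values summed to 29030, 17160 and 37890 TPM in obesogenic libraries 1, 2 and 3, and to 33309, 29482 and 33573 TPM in the control libraries. The 101 nuclear genes together summed to 19932, 13327 and 26539 TPM in the obesogenic libraries, and to 19685, 20914 and 21205 TPM in the control libraries. The obesogenic range enclosed the control range in both cases. As a share of the listed TPM, mt- genes took 3.5% ± 1.38 in obesogenic and 4.01% ± 0.268 in control libraries (SD, n = 3 each).

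Among the mt- genes, mt-Atp6, a subunit of the proton channel of ATP synthase, was first in every library. It measured 7932, 4389 and 10083 TPM in the obesogenic libraries and 9303, 8474 and 8997 TPM in the control libraries, which is 25.6% to 28.7% of the mt- sum. The fitted difference was -0.34 (SE 0.42, limma adjusted p = 0.818), and the groups overlapped. mt-Co3, a core subunit of complex IV, came second, at 5685, 3608 and 8474 TPM in obesogenic and 6753, 5672 and 7126 TPM in control libraries, a difference of -0.22 (SE 0.41).

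The next 3 genes did not hold a fixed order among themselves. The other core subunits of complex IV were mt-Co1, which carries the oxygen-binding site, and mt-Co2, which takes electrons from cytochrome c. mt-Co1 was at 2754, 1769 and 3356 TPM in obesogenic and 2820.0, 2613 and 3306 TPM in control libraries. mt-Co2 was at 3038, 2330.3 and 3924 TPM in obesogenic and 4102, 3681 and 3539.9 TPM in control libraries. mt-Cytb, the only complex III subunit encoded in mitochondrial DNA, was at 3286, 1751 and 3672 TPM in obesogenic and 3747, 3004 and 3572 TPM in control libraries. The differences were -0.19, -0.31 and -0.31 for mt-Co1, mt-Co2 and mt-Cytb, with limma adjusted p of 0.877, 0.757 and 0.801, and the groups overlapped in each.

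The complex I genes of mitochondrial DNA, which encode the proton-pumping membrane arm, spanned the lower part of the order. mt-Nd1 was the highest of them, at 2118, 1235 and 2835 TPM in obesogenic and 2341, 1919.8 and 2317 TPM in control libraries. mt-Nd4 was next, at 1282, 704 and 1514 TPM in obesogenic and 1600.0, 1268 and 1527 TPM in control libraries, a difference of -0.39 (SE 0.32, limma adjusted p = 0.715) that was -0.065 without obesogenic library 2. mt-Nd5 measured 632, 311 and 811 TPM in obesogenic and 749.6, 621 and 705 TPM in control libraries. In these genes obesogenic library 2 was below every other library and the remaining obesogenic values lay near the control values. mt-Nd2 was at 519.8, 277 and 708 TPM in obesogenic and 511, 506 and 569 TPM in control libraries. mt-Nd6, which unlike the others is read from the opposite strand of mitochondrial DNA, was at 444, 221 and 557 TPM in obesogenic and 419.9, 461 and 543 TPM in control libraries. Fitted differences of mt-Nd1, mt-Nd5, mt-Nd2 and mt-Nd6 were -0.16, -0.35, -0.18 and -0.31.

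**Figure D2:**
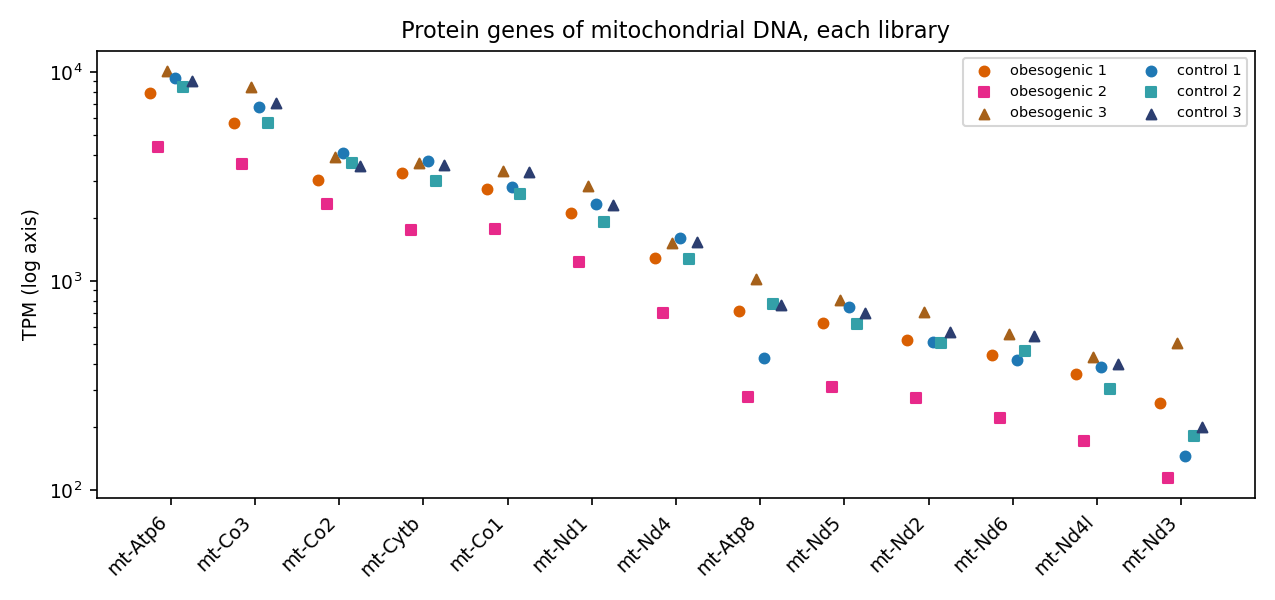
TPM of each mitochondrial protein gene in each of the 6 libraries, on a log axis, in order of mean level from mt-Atp6 to mt-Nd3. Obesogenic library 2 is the lowest point for all 13 genes, and mt-Nd3 alone has a higher obesogenic mean on the log2 scale.

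Pairs of mitochondrial genes that share one messenger RNA were listed at unlike levels. mt-Atp8 and mt-Atp6 overlap on a shared transcript, and mt-Nd4l and mt-Nd4 do likewise. mt-Atp8 was at 719.5, 278 and 1022 TPM in obesogenic and 429, 779.7 and 769.8 TPM in control libraries, which is 0.0461 to 0.101 times the level of mt-Atp6. mt-Nd4l was at 358, 172 and 431 TPM in obesogenic and 388, 303 and 399.6 TPM in control libraries, which is 0.239 to 0.284 times the level of mt-Nd4. The second ratio was the steadier one across libraries, and both overlapped between the diets. In such short overlapping genes, reads can be assigned to either partner.

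mt-Nd3, another complex I membrane subunit and the lowest mt- gene by mean level, was the only one with a higher obesogenic mean on the log2 scale. It measured 262, 115 and 502 TPM in obesogenic and 145, 181 and 201 TPM in control libraries, a difference of 0.50 (SE 0.49, limma adjusted p = 0.761), and the control values lay inside the obesogenic range. Relative to mt-Nd4 in the same library, it stood at 0.204, 0.163 and 0.332 in obesogenic and 0.0906, 0.143 and 0.131 in control libraries, so the ratios did not overlap. This ratio was chosen after its values were seen. A nuclear copy with 99.71% identity over 345 bases, Gm28438, was listed at 79.6, 25.2 and 178 TPM in obesogenic and 152, 115 and 208 TPM in control libraries. With the copy added, the difference of mt-Nd3 was -0.05.

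The balance between the genomes was slightly lower in the obesogenic libraries but overlapped. Summed mt- TPM was 1.46, 1.29 and 1.43 times summed nuclear TPM in the obesogenic libraries, against 1.69, 1.41 and 1.58 times in the control libraries. Obesogenic libraries 1 and 3 lay between control libraries 2 and 3. The difference of the log2 ratios was -0.17, and it stayed between -0.24 and -0.11 when any one library was left out. It was also -0.17 over members with every annotated transcript used. Such a ratio within a library does not depend on how the library was scaled.

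By complex, the ratio of mt- to nuclear subunits in listed TPM was lowest in complex I and highest in complex IV. The nuclear sums include partial levels, so this order holds for listed TPM only. For complex I it was 0.835, 0.690 and 0.844 in obesogenic and 0.963, 0.779 and 0.922 in control libraries. For complex III it was 1.56, 1.32 and 1.35 in obesogenic and 1.72, 1.32 and 1.49 in control libraries. For complex IV it was 2.76, 2.64 and 2.66 in obesogenic and 3.14, 2.52 and 2.85 in control libraries. These 3 overlapped between the diets. For ATP synthase it was 1.67, 1.32 and 1.59 in obesogenic and 1.92, 1.70 and 1.81 in control libraries, so every obesogenic library was below every control library, by 0.25 on the log2 scale between the means. No p is given for these ratios, because the genes were chosen with results known and the smallest exact permutation p for 3 against 3 libraries is 0.1.

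**Figure D3:**
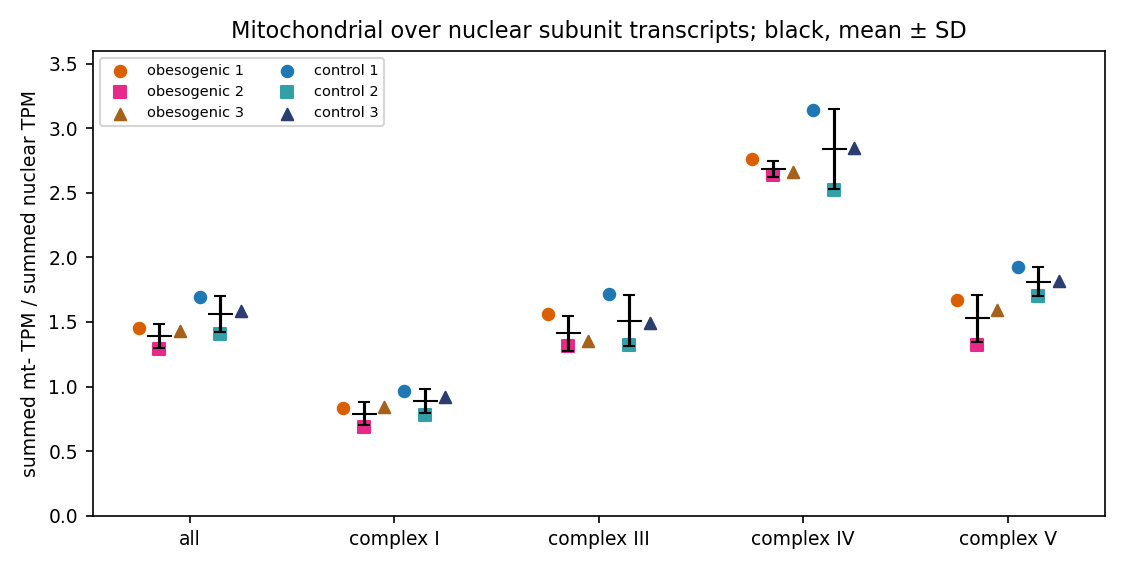
Summed mt- TPM divided by summed nuclear structural-subunit TPM (for all, by all nuclear members) in each library, with black bars for the mean ± SD of 3 libraries. Obesogenic and control libraries overlap for all members and for complexes I, III and IV, and separate for complex V, at 1.32 to 1.67 against 1.70 to 1.92.

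Complex I, NADH dehydrogenase, had 36 nuclear structural subunits, all tested. Their median difference was -0.08 (-0.23 after centring on the library median, 0.03 with immunoglobulin genes removed before scaling and 0.19 without obesogenic library 2), with 11 higher and 25 lower, and differences ran from -0.51 to 0.30. None had groups that did not overlap (background 8.88% higher and 7.45% lower). Their mean levels ran from 4.58 TPM, a partial level, to 403 TPM, with a median of 185 TPM. Ndufab1, the acyl carrier protein that also serves mitochondrial fatty acid synthesis, was the most abundant, at 397, 252 and 688 TPM in obesogenic and 387, 361 and 333 TPM in control libraries. Its difference was 0.19 (SE 0.35). Ndufs7, which carries the last iron-sulphur cluster before ubiquinone, was at 340.2, 236 and 419.5 TPM in obesogenic and 346, 378 and 386 TPM in control libraries, a difference of -0.19 (SE 0.24). For both, the control libraries lay inside the obesogenic range.

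The smallest p-values in complex I belonged to genes with partial levels or close copies. Ndufa12, an accessory subunit, was at 268, 182 and 257 TPM in obesogenic and 170.1, 190.0 and 206 TPM in control libraries, a difference of 0.30 (SE 0.21, limma adjusted p = 0.652). Its processed pseudogene Gm15920, 99.5% identical over 402 bases, was at 6.43, 2.16 and 116 TPM in obesogenic and 82.8, 82.0 and 84.5 TPM in control libraries. The sum of both was 274, 184 and 373 TPM in obesogenic and 253, 272 and 291 TPM in control libraries, and its difference was -0.03. Ndufb4, a membrane-arm accessory subunit, was at 61.3, 45.2 and 76.1 TPM in obesogenic and 42.4, 53.3 and 53.6 TPM in control libraries (0.26, SE 0.24). Its copy Ndufb4c, identical over 390 bases, was listed well above it, at 283, 167 and 439 TPM in obesogenic and 297, 298 and 325 TPM in control libraries. A difference for Ndufb4 and Ndufb4c summed was not computed, so the sign for Ndufb4 is not secure. With protein-coding transcripts only, the difference of Ndufb4 was 0.033. Ndufs5 had a partial level of 10.3, 5.87 and 6.91 TPM in obesogenic and 6.72, 8.75 and 22.7 TPM in control libraries (-0.51, SE 0.46), and without control library 3 its difference was -0.028.

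Complex II, succinate dehydrogenase, is also an enzyme of the tricarboxylic acid cycle, and its 4 subunits are all nuclear. Their median difference was -0.06 (-0.20 after centring on the library median, 0.05 with immunoglobulin genes removed before scaling and 0.11 without obesogenic library 2), with 2 higher and 2 lower. Sdha, the flavoprotein, was at 417, 240.3 and 419 TPM in obesogenic and 329, 334 and 321 TPM in control libraries, a difference of 0.08 (SE 0.25). Sdhb, the iron-sulphur subunit, was at 239, 193 and 309 TPM in obesogenic and 238, 248 and 240.3 TPM in control libraries, a difference of 0.00 (SE 0.21). For the membrane anchors, Sdhc was at 200.4, 118 and 230.3 TPM in obesogenic and 199, 231 and 194 TPM in control libraries (-0.24, SE 0.27). Sdhd was at 155, 127 and 197 TPM in obesogenic and 151, 169.7 and 191 TPM in control libraries (-0.11, SE 0.21). Control libraries were close together in Sdha and Sdhb, and obesogenic library 2 was the lowest in all 4 genes. The signs of Sdha and Sdhb were not stable, since both were negative after centring on the library median, at -0.06 and -0.15.

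Complex III, the cytochrome bc1 complex, had 8 nuclear subunits, with a median difference of -0.16 (-0.30 after centring on the library median, -0.05 with immunoglobulin genes removed before scaling and 0.12 without obesogenic library 2), 1 higher and 7 lower. Its most abundant member was Uqcr10, a small accessory subunit, at 448, 288 and 569 TPM in obesogenic and 484, 481 and 515 TPM in control libraries (-0.23, SE 0.27). Uqcr11, the smallest subunit, was at 419.6, 229 and 479 TPM in obesogenic and 451, 491 and 498 TPM in control libraries (-0.42, SE 0.29, limma adjusted p = 0.653), a difference that was -0.098 without obesogenic library 2. Uqcrb, which helps bind ubiquinone, was at 242, 193 and 338 TPM in obesogenic and 319, 311 and 305 TPM in control libraries (-0.31, SE 0.23). In all 3, obesogenic libraries 1 and 2 were below every control library, while obesogenic library 3 lay above the lowest control value. The Rieske iron-sulphur protein Uqcrfs1 averaged 165 ± 66.0 TPM in obesogenic and 158 ± 20.5 TPM in control libraries (SD, n = 3 each), and the core protein Uqcrc2 averaged 149.8 ± 54.3 TPM in obesogenic and 135 ± 11.8 TPM in control libraries. These subunits were named in addition, after their values were seen.

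Complex IV, cytochrome c oxidase, held the members with the smallest p-values of the chain. Of its 16 nuclear structural subunits 15 were tested, with a median difference of -0.15 (-0.30 after centring on the library median, -0.05 with immunoglobulin genes removed before scaling and 0.07 without obesogenic library 2), 1 higher and 14 lower. Cox8a and Cox6a1, the widely used forms of subunits 8 and 6a, had the highest mean levels, and their groups overlapped. Cox6a1 was at 746, 529 and 933 TPM in obesogenic and 791, 879 and 906 TPM in control libraries (-0.26, SE 0.25), and Cox8a was at 785, 555 and 1033 TPM in obesogenic and 759, 852 and 909 TPM in control libraries (-0.13, SE 0.27). Ndufa4, first assigned to complex I and now placed in complex IV, was at 490.2, 302 and 906 TPM in obesogenic and 488, 606 and 574 TPM in control libraries (-0.11, SE 0.38). Cox4i1, which binds ATP as a regulatory subunit, was at 120.2, 71.8 and 144 TPM in obesogenic and 145, 146 and 170.4 TPM in control libraries. Its groups did not overlap (-0.51, SE 0.27, limma adjusted p = 0.544), but its main coding transcript was not used here and only 32.0% of its listed TPM came from protein-coding transcripts. Leaving out obesogenic library 2 gave a difference of -0.22, and leaving out obesogenic library 3 gave -0.72.

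Cox7a1 (ENSMUSG00000074218), the muscle-type isoform of subunit 7a, was lower in every obesogenic library. It measured 15.3, 11.7 and 18.8 TPM in obesogenic and 39.2, 37.0 and 22.6 TPM in control libraries, a difference of -1.05 (SE 0.29, limma adjusted p = 0.302). Its partner Cox7a2 was at 269.9, 195 and 441 TPM in obesogenic and 333, 325 and 326 TPM in control libraries (-0.20, SE 0.30). Within the pair, Cox7a1 made up 5.35%, 5.67% and 4.09% in obesogenic and 10.5%, 10.2% and 6.49% in control libraries, so the shares did not overlap either. When each library was left out in turn, the difference of Cox7a1 ran from -1.29 to -0.88.

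Summed markers of vessel walls and of meninges were also lower in every obesogenic library, and skeletal muscle markers were lower on average with overlap. The 12 skeletal muscle markers summed to 8.36 to 22.2 TPM in obesogenic and 16.5 to 70.9 TPM in control libraries, so their ranges overlapped. Of these, 11 were lower on average, and 4 of the 12 were under 1 TPM in every library. The 10 pericyte and smooth muscle markers, a list written after the data were seen, summed to 433 to 451 TPM in obesogenic and 792 to 1202 TPM in control libraries, with 9 lower and Pdgfrb listed at 0 in all libraries. The 5 endothelial markers summed to 259 to 303 TPM in obesogenic and 532 to 836 TPM in control libraries, with all 5 lower. The 7 meningeal markers summed to 489 to 583 TPM in obesogenic and 1254 to 1811 TPM in control libraries, with all 7 lower. The 6 astrocyte markers summed to 1995 to 3940 TPM in obesogenic and 3380 to 6077 TPM in control libraries, so their ranges overlapped, with 4 lower and 2 higher. The part of these cell types in the lower Cox7a1, and in the lower Cox4i1 and Cox6b2, was not tested.

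Cox6a2 (ENSMUSG00000030785), the heart and muscle isoform of subunit 6a, went the other way. It measured 6.75, 16.5 and 14.7 TPM in obesogenic and 5.09, 1.13 and 1.42 TPM in control libraries, a difference of 2.03 (SE 0.52, limma adjusted p = 0.272). Every obesogenic library was above every control library, though obesogenic library 1 and control library 1 were close. Its share of the Cox6a1 and Cox6a2 sum was 0.897%, 3.03% and 1.56% in obesogenic and 0.640%, 0.128% and 0.156% in control libraries. It was thus a small minority form in all libraries. Leaving out each library in turn gave differences from 1.75 to 2.51.

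Cox6b2 (ENSMUSG00000051811), an isoform of subunit 6b best known from testis, had the smallest adjusted p of all members. It measured 36.1, 25 and 30.2 TPM in obesogenic and 60.1, 64.6 and 53.8 TPM in control libraries, a difference of -0.96 (SE 0.20, limma adjusted p = 0.225). No obesogenic library came near the lowest control library. Without obesogenic library 2 the limma adjusted p was 0.0426, with a difference of -0.83, and the fit then called 914 genes. Its partner Cox6b1 was at 393, 283 and 562 TPM in obesogenic and 403, 424 and 460.0 TPM in control libraries (-0.11, SE 0.27). Cox6b2 made up 8.40%, 8.13% and 5.10% of the pair in obesogenic and 13%, 13.2% and 10.5% in control libraries. The Cox6b2 level is partial, because one of its coding transcripts was not used here.

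The remaining isoforms were low or variable. Cox8b, the muscle and brown fat isoform of subunit 8, was at 18.3, 0.546 and 6.52 TPM in obesogenic and 7.53, 13.6 and 20.2 TPM in control libraries (-1.18, SE 0.87, limma adjusted p = 0.678). With obesogenic library 2 left out the difference was -0.20, and with obesogenic library 1 left out -2.02. The 8 brown fat markers, which count Cox8b among them, summed to 9.54 to 45 TPM in obesogenic and 33 to 62.9 TPM in control libraries, and Ucp1, their defining gene, was listed at 0 in all 3 obesogenic libraries and in control libraries 1 and 2. Cox4i2, the form of subunit 4 known from lung and from pericytes, was listed at 0 in every library except control library 2, at 7.77 TPM, and was not tested. The testis isoforms Cox7b2, named in addition after its values were seen (8.36, 0.387 and 3.01 TPM in obesogenic and 2.92, 5.60 and 2.58 TPM in control libraries), and Cox8c (listed at 0 in all 6 libraries) did not separate the diets. Cox6c2, a processed copy of Cox6c, was at 15.7, 12.7 and 41.3 TPM in obesogenic and 21.8, 22.1 and 51.0 TPM in control libraries.

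**Figure D4:**
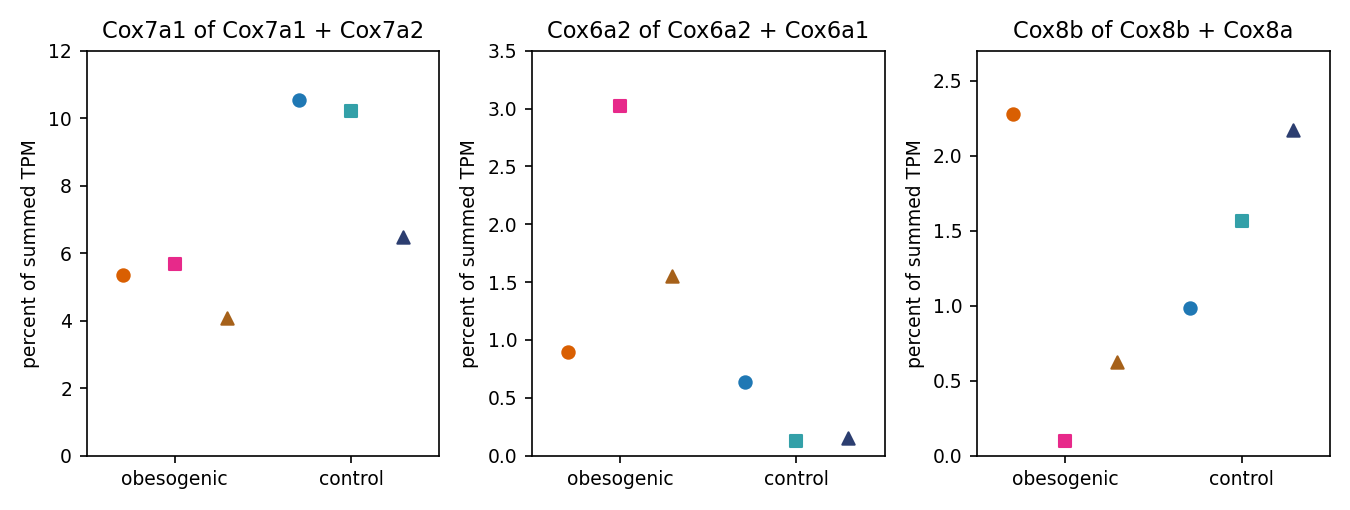
Share of the summed TPM of an isoform pair held by the tissue-restricted form, for subunits 7a, 6a and 8 of complex IV, with circles, squares and triangles for libraries 1, 2 and 3 of each diet. Obesogenic libraries are all lower for Cox7a1 (4.09% to 5.67% against 6.49% to 10.5%) and all higher for Cox6a2, and overlap for Cox8b.

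Complex V, ATP synthase, had 18 nuclear structural entries, with a median difference of -0.09 (-0.23 after centring on the library median, 0.02 with immunoglobulin genes removed before scaling and 0.19 without obesogenic library 2), 5 higher and 13 lower. Atp5b, the catalytic beta subunit, was the most abundant nuclear member of the chain, at 1134, 749 and 1228 TPM in obesogenic and 1005, 1088 and 1144 TPM in control libraries (-0.09, SE 0.25). Atp5g3, one of the genes for the rotating c-ring, was at 575, 379 and 776 TPM in obesogenic and 591, 735 and 636 TPM in control libraries (-0.24, SE 0.29). Among the 3 c-ring genes, Atp5g1 held 27.0%, 26.7% and 31.8% of their sum in obesogenic and 24.2%, 22.6% and 25.5% in control libraries, a share that did not overlap but rests on a partial Atp5g1 level and was singled out after it was seen. Atp5j, the coupling factor 6 gene, had a partial level of 272, 253 and 387 TPM in obesogenic and 404, 316 and 361 TPM in control libraries (-0.26, SE 0.22).

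Of the complex V members with the smallest p-values, Atp5k and a minor entry of Atp5o were low. Atp5k, subunit e, which takes part in forming synthase dimers, had a partial level of 3.20, 2.89 and 2.90 TPM in obesogenic and 1.07, 0 and 2.5 TPM in control libraries. Its groups did not overlap (1.05, SE 0.49, limma adjusted p = 0.490), and the difference was 0.57 without control library 2 and 1.47 without control library 3. Atp5o, the stalk subunit known as OSCP, was listed under separate identifiers at overlapping places. The main entry (ENSMUSG00000022956) was at 308, 194 and 418 TPM in obesogenic and 294, 321 and 316 TPM in control libraries (-0.09, SE 0.28). The minor entry (ENSMUSG00000116933) was at 6.27, 3.17 and 2.7 TPM in obesogenic and 5.29, 8.91 and 8.62 TPM in control libraries (-0.81, SE 0.38, limma adjusted p = 0.492). Reads of these entries cannot be told apart with certainty.

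Assembly factors, which build complexes I and II and are not part of the finished enzymes, had a median difference of 0.12 over 12 genes, with 8 higher and 4 lower, and of -0.03 after centring on the library median and -0.16 without obesogenic library 3. Ndufaf7, a methyltransferase that acts on a complex I subunit, was at 56.2, 39.2 and 59.2 TPM in obesogenic and 44.6, 27.6 and 45.6 TPM in control libraries (0.40, SE 0.27, limma adjusted p = 0.651). Ndufaf5, a hydroxylase of another complex I subunit, was at 20.1, 12.1 and 32.3 TPM in obesogenic and 14.5, 17.2 and 15.7 TPM in control libraries (0.32, SE 0.35). Sdhaf3, which helps place the iron-sulphur clusters of Sdhb, was at 3.23, 1.26 and 4.98 TPM in obesogenic and 1.90, 2.72 and 1.91 TPM in control libraries (0.29, SE 0.43). None of the 12 had groups that did not overlap (background 8.88% higher and 7.45% lower), and so few genes make that count weak. In sum, assembly factors reached 410.2, 276 and 531 TPM in obesogenic and 394, 343 and 355 TPM in control libraries.

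Near-identical copies elsewhere in the annotation touched 38 members, 9 of them mt- genes, at 95% identity or more over at least 200 bases or 80% of a short transcript. Reads could be split between a gene and its copy. The largest case was mt-Co1, whose nuclear copy Gm29216, 99.79% identical over 483 bases, was listed at 3913, 2808 and 4432 TPM in obesogenic and 5475, 4589 and 5992 TPM in control libraries. The copy was thus listed above mt-Co1 itself in all 6 libraries, and each obesogenic value was below every control value. With its copies added, mt-Co1 had a difference of -0.41, against -0.19 alone. TPM is corrected for length, so a sum over a gene and a copy of another length is not a combined level. Another copy of mt-Co1, Gm13340, aligned over 1545 bases. Copies of mt-Co2 (Gm28661), mt-Co3 (Gm28437) and mt-Atp6 (Gm10925) were identical over 681, 783 and 678 bases. With all listed copies added, the difference of the log2 mt- to nuclear ratio was -0.22, with the same limit on summed TPM. Cox7a2l, a protein that helps join complexes III and IV, was at 97.9, 79.5 and 113 TPM in obesogenic and 109.8, 105 and 92.2 TPM in control libraries. Its copy Gm6969 was at 80.5, 68.4 and 105 TPM in obesogenic and 30.6, 53.6 and 55.1 TPM in control libraries. With the copy added, the difference of Cox7a2l was 0.27, against -0.09 alone, so its sign turned. Gm10221, identical to Atp5l over 309 bases, was at 234, 154 and 200 TPM in obesogenic and 166, 190.5 and 171 TPM in control libraries.

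**Figure D5:**
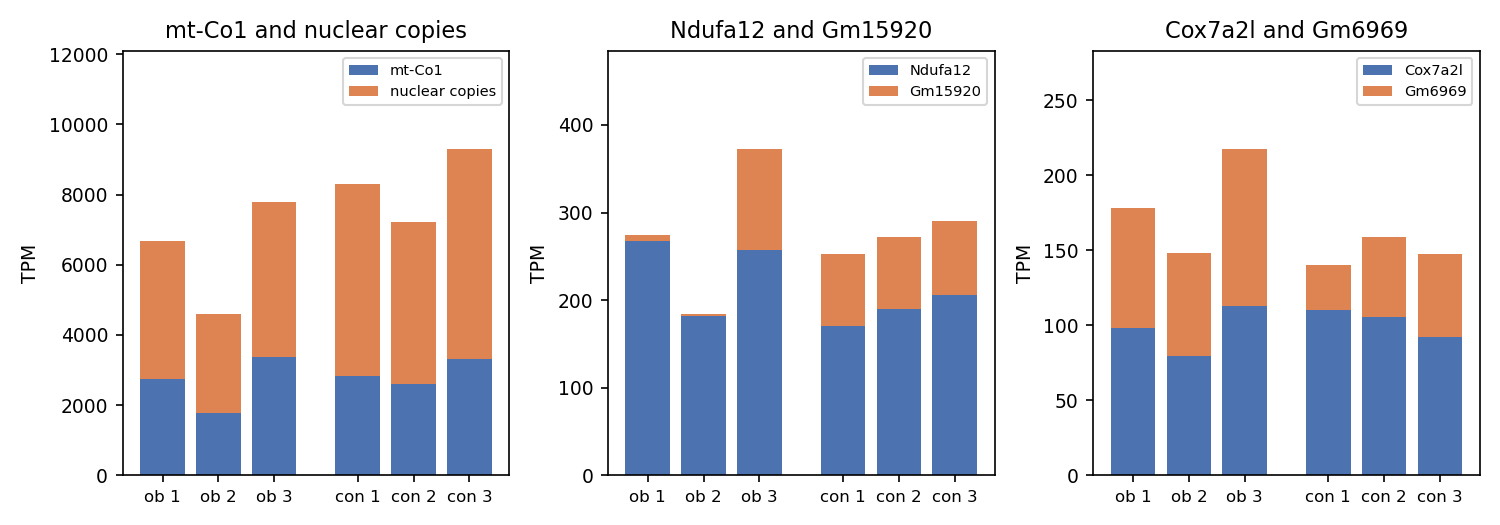
Stacked TPM of a member (blue) and its near-identical copies (orange) in each library, obesogenic (ob) left of control (con), for mt-Co1, Ndufa12 and Cox7a2l. The Gm15920 part of the Ndufa12 bar is nearly absent in obesogenic libraries 1 and 2, at 6.43 and 2.16 TPM, and is 82.0 to 116 TPM in the other 4.

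Genes that work with the chain gave the same count of 0 past the adjusted threshold, in either direction, in each of 9 lists. The electron carriers and ubiquinone synthesis list had a median difference of 0.02 over 17 tested genes. Pdss1, which makes the side chain of ubiquinone, was at 2.97, 3.42 and 5.0 TPM in obesogenic and 1.59, 1.27 and 1.48 TPM in control libraries (0.95, SE 0.32, limma adjusted p = 0.376). Its groups did not overlap. Assembly factors outside the name rule had a median of 0.01 over 41 genes. Among them Cox19, a copper-handling factor of complex IV, was at 28.9, 35.2 and 40.5 TPM in obesogenic and 50, 53.2 and 47.1 TPM in control libraries (-0.52, SE 0.19, limma adjusted p = 0.414), and Coa5, a complex IV assembly factor, at 49.6, 50.1 and 50.2 TPM in obesogenic and 34.6, 36.8 and 40.3 TPM in control libraries (0.42, SE 0.17, limma adjusted p = 0.437). Neither gene's groups overlapped, and the directions were opposite.

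Genes for copying, transcribing and handling mitochondrial DNA and RNA had a median of 0.14 over 30 genes, with 21 higher and 9 lower, against a median of 0.08 and 57.7% higher over all genes tested, while the mt- transcripts themselves had the median of -0.27 given above. In 4 of the 30 every obesogenic library was above every control library (background 8.88%). Fastkd3, a mitochondrial RNA-binding protein, was one of these, at 11.2, 10.9 and 12.6 TPM in obesogenic and 7.58, 7.12 and 8.01 TPM in control libraries (0.55, SE 0.24). A limma unadjusted p under 0.05 was reached by 0 of the 30 (background 11.0%). Elsewhere, obesogenic libraries were all higher for 5 of 77 mitochondrial ribosome, 6 of 86 cytosolic ribosome and 1 of 24 carrier genes. They were so for 1 of 17 electron carrier, 1 of 41 assembly, 0 of 9 regulator, 0 of 19 tricarboxylic acid cycle and 1 of 8 uncoupling genes. Hsd17b10, a subunit of mitochondrial RNase P, was at 104, 53.8 and 80.6 TPM in obesogenic and 98.1, 120.2 and 149 TPM in control libraries (-0.65, SE 0.28). Known regulators of nuclear subunit genes had a median of -0.10 over 9 genes, with 4 higher and 5 lower. Yy1 was at 6.19, 4.95 and 5.52 TPM in obesogenic and 7.64, 5.96 and 11.0 TPM in control libraries (-0.46, SE 0.31). Ppara was also lower on average (-0.57, SE 0.38) and Pprc1 higher (0.41, SE 0.33), and the groups overlapped in each of these genes.

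The tricarboxylic acid cycle list had a median of -0.04 over 19 genes, with 9 higher and 10 lower, against a median of 0.08 over all genes. The sign of the latter depends on the scaling, at -0.07 after centring on the library median. Fh1, fumarase, was lower in every obesogenic library, at 21.9, 18.0 and 18.3 TPM in obesogenic and 24.9, 41.1 and 28.7 TPM in control libraries (-0.65, SE 0.25, limma adjusted p = 0.420). Ogdh of the same list had a higher obesogenic mean (0.57, SE 0.32), with groups that overlapped. Carriers, outer membrane and cristae genes had a median of 0.09 over 24 genes, with 16 higher and 8 lower. The import receptor Tomm70a was at 45.4, 33.8 and 71.4 TPM in obesogenic and 27.8, 24.7 and 28.2 TPM in control libraries (0.81, SE 0.29, limma adjusted p = 0.399). Tomm40 went the other way, at 17.9, 13.2 and 5.67 TPM in obesogenic and 21.2, 18.0 and 19.9 TPM in control libraries (-0.77, SE 0.39, limma adjusted p = 0.526). Neither gene's groups overlapped. The list of uncoupling proteins, alternative isoforms and inhibitors had a median of 0.11 over 8 genes. In it Hif1a, the oxygen-regulated transcription factor, was at 90.8, 81.9 and 81.3 TPM in obesogenic and 64.4, 62.4 and 62.3 TPM in control libraries (0.42, SE 0.16, limma adjusted p = 0.414), without overlap. Mitochondrial ribosome genes had a median of 0.11 over 77 genes and cytosolic ribosome genes of 0.10 over 86.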

How the data were processed

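Bulk poly(A) RNA of mouse optic nerve was sequenced in 6 libraries, 3 for each diet. Kits are named per the labels' protocols, NucleoSpin RNA Plus XS for extraction and SMART-Seq mRNA for libraries. The authors deposited a table of transcript TPM. Per the submitters' processing notes, the tools were STAR 2.7.9a, featureCounts 2.0.3, Subread and DRAGEN, with no role stated for any. Which of them gave TPM, on which build and annotation, is not given in the sources used here. TPM keeps no depth, so no counting interval was computed, and a value of 0 means only that a transcript was listed at 0.

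The table held 110028 lines for 109383 transcripts, and 415 repeated transcripts, whose lines held the same values, were counted once. Transcripts were summed per gene, and the name pattern matched 129 genes, of which 14 pseudogenes and Ndufa4l2 were left out. Genes reaching 1 TPM in 3 or more of the 6 libraries were tested as log2(TPM + 1) of the deposited TPM with limma 3.58.1 in R 4.3.3 (lmFit and eBayes with trend, obesogenic minus control, two-sided). Benjamini-Hochberg adjustment ran over the 14364 genes tested, and 0.05 was the threshold. The fit was tested on simulated data with 200 changed genes. Near-identical copies were found with blastn 2.17.0 on GENCODE M21 transcripts, and promoters come from RefSeq. Tables and figures were made with Python 3.11.15, pandas 2.3.3 and matplotlib 3.10.9.

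The members, the gene lists and the naming rule were chosen with earlier results of these data known. The rule names all mt- genes, for each complex the 2 nuclear subunits of highest mean and the 3 with the lowest unadjusted p whose mean reached 2 TPM, 3 assembly factors, the isoform pairs of complex IV, Ndufa4 and Atp5if1 (not analysed here), and up to 3 genes of each further list. Members outside it are described by ranges, apart from those said to be chosen after their values were seen and those named for their copies.

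Alternatives covered the pseudocount (0.1 and 5), the filter, the scaling between libraries, the transcripts summed, array weights, eBayes settings, libraries left out and the sample number as a block. Handling of near-identical copies and of partly listed genes was added after seeing the data. Sample numbers were checked as pairs, and a pairing was not established.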

Additional observations from a re-analysis of the deposited data

How the results depend on the processing

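The count of members past the adjusted threshold was 0 and stayed 0 under all alternatives except 3. Array weights called 3 (Ndufa12, Cox6b2 and Cox7a1, at limma adjusted p of 0.0368, 0.0137 and 0.0189), leaving out obesogenic libraries 1 and 3 together called 1 (Uqcr11), and leaving out each library in turn called 0 to 1 (Cox6b2, without obesogenic library 2). Over all genes the count of 1 became 0 with a pseudocount of 5, without a filter, with a mean of at least 5 TPM and with protein-coding transcripts only, 11 after centring, 2064 with array weights, 193 without obesogenic libraries 1 and 3, and 0 to 914 when each library was left out. The highest was without obesogenic library 2, where 735 of 914 were higher, and the cause was not tested. The median of all genes was 0.08, and -0.07 after centring, -0.03 after quantile normalization and 0.17 with immunoglobulin genes removed.

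With obesogenic libraries 1 and 3 left out, so that obesogenic library 2 stood alone and was assumed to vary like the control libraries, the median difference was -0.60 for nuclear members, -0.97 for mt- genes, -0.57, -0.43, -0.72, -0.70 and -0.55 for complexes I to V, and -0.47 for assembly factors. When each library was left out in turn, medians ran from -0.31 to 0.18 for nuclear members, -0.51 to 0.08 for mt- genes, -0.31 to 0.19, -0.22 to 0.11, -0.41 to 0.12, -0.45 to 0.07 and -0.29 to 0.19 for complexes I to V, and -0.16 to 0.30 for assembly factors. The positive end came without obesogenic library 2 in each.

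Of 43 named members fitted, 20 changed sign without obesogenic library 2 and 6 without obesogenic library 3. Over the libraries left out, differences ran from -0.19 to 0.54 for Ndufab1, -0.38 to 0.032 for Ndufs7, -0.051 to 0.35 for Sdha, -0.17 to 0.17 for Sdhb, -0.43 to 0.051 for Sdhc, -0.28 to 0.041 for Sdhd, -0.45 to 0.034 for Uqcr10, -0.36 to 0.13 for Cox6b1, -0.52 to 0.072 for Cox7a2, -0.34 to 0.10 for Cox8a, -0.52 to 0.27 for Ndufa4, -0.23 to 0.13 for Atp5b, -0.48 to 0.036 for Atp5g3, -0.014 to 0.66 for Ndufaf5 and -0.030 to 0.67 for Sdhaf3. For mt- genes they ran from -0.43 to 0.17 for mt-Nd1, -0.48 to 0.20 for mt-Nd2, -0.0064 to 1.05 for mt-Nd3, -0.54 to 0.12 for mt-Nd4l, -0.64 to 0.053 for mt-Nd5, -0.59 to 0.077 for mt-Nd6, -0.51 to 0.020 for mt-Cytb, -0.39 to 0.069 for mt-Co1, -0.52 to 0.10 for mt-Co3, -0.60 to 0.0041 for mt-Atp6 and -0.51 to 0.43 for mt-Atp8. With no change of sign they ran from 0.20 to 0.48 for Ndufa12, 0.087 to 0.46 for Ndufb4, 0.17 to 0.58 for Ndufaf7, -0.52 to -0.12 for Uqcrb, -0.45 to -0.038 for Cox6a1, -0.45 to -0.14 for Atp5j, -1.10 to -0.62 for the minor Atp5o entry and -0.50 to -0.13 for mt-Co2. Without obesogenic libraries 1 and 3, Ndufa12 (-0.049), Ndufab1 (-0.51), Ndufb4 (-0.13), mt-Nd3 (-0.60), Sdha (-0.45), Sdhb (-0.33), Ndufaf5 (-0.36) and Sdhaf3 (-0.48) turned negative. So did Ndufa12 (-0.029) and mt-Nd3 (-0.047) with copies summed, Sdha (-0.065) and Sdhb (-0.15) after centring, and Sdhb after rescaling the listed TPM to a common total (-0.0050) or without mt- genes (-0.012). Copies that are members themselves were not summed with their gene, so Ndufb4 with its copy Ndufb4c was not checked in this way. Array weights turned Cox8b (0.28), Atp5b (0.067) and mt-Atp8 (0.18), the most abundant transcript turned Ndufa4 (0.013), and removal of immunoglobulin genes turned Atp5b (0.016).

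A pairing of the libraries by sample number was not established. Deviations of same-numbered libraries correlated at 0.01, 0.18 and 0.13 across genes. Obesogenic libraries 2 and 3 correlated best with the control library of the same number, and obesogenic library 1 with control library 3 (0.11). Deviations from a group's own mean depend on one another, so this check cannot exclude pairing. With the replicate block, 0 members and 1 gene in all were called. That block used the numbers of the sample titles, and the submitters' library names carry other numbers, which were not tried. TPM gives no depth, so counting error of low members could not be set apart from the spread between libraries.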
